A study of Caenorhabditis elegans with 3 samples.

Results

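The genes described here encode subunits of ligand-gated ion channels of the nematode Caenorhabditis elegans, chosen by gene symbol: all acr, lgc, ggr, glr and nmr genes together with eat-2, unc-29, unc-38, unc-63, unc-49, exp-1 and mod-1. Of the 15168 genes that the platform annotation pairs with a probe of their own, 77 follow this rule, namely 42 lgc, 18 acr, 10 glr and 2 nmr genes and 5 of those listed singly. No probe was named here for unc-63, mod-1 or a ggr gene. The tested RNA came from adult hermaphrodites labelled TP11 "adult w/ emb 2", where "w/ emb" is taken to mean that the worms held embryos, and the meaning of the code and the number is not given. The other channel of each 2-colour array held wild-type RNA labelled as a mixed reference. There was 1 array for each of 3 worm preps, and these make up a single group. The labels give no strain, genotype or age beyond this for the adults and no stages for the reference, and they do not say whether each prep was a culture of its own. The p-values therefore cover only the variation among these 3 preps, part or all of which may be technical.

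A ligand-gated ion channel opens an ion path through the membrane when a neurotransmitter binds it, and so turns a chemical signal into a current within the receiving cell. Most worm genes of this kind encode subunits of the pentameric Cys-loop family, which holds the nicotinic-type acetylcholine receptors, GABA and amine receptors and several chloride channels, while the glr and nmr genes encode tetrameric glutamate receptors. In the worm these channels act mainly in neurons, in body wall muscle at the neuromuscular junction, and in the pharynx and the enteric muscles.

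Each value below is a log2 ratio of adult over reference RNA, after the median of each array was subtracted, given for preps 1, 2 and 3 in that order and then as mean ± SD (n = 3). Values above 0 are taken to mean more of the transcript in adult than in reference RNA. Channel 2 is labelled as the adults and channel 1 as the reference, but the dyes are not named, so the direction is likely rather than settled. Under this reading 7 of 7 germline genes were higher in the adults (median 1.94), beside 16.1% of all genes. Of 10 measured yolk, eggshell and oocyte genes of an embryo-bearing adult 6 were higher (median 0.97). In both lists 0 were lower, beside 17.9% of all genes. The 4 that did not pass were egg-1, vit-5, cpg-2 and vit-6, with means from −0.31 to 0.22. A gene was called higher or lower when at least 1 of its probes had an adjusted p under 0.05 in limma, fitted on all 19710 probes with a value on every array. In whole worms, fewer cells of a type, less RNA per cell and a larger share of RNA from other tissues cannot be told apart.

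Of the 77 genes, 76 could be tested, and 19 were lower in the adults while 1 was higher and 56 did not pass. The 19 lower genes make up 25% of those tested, beside 17.9% of all 15090 genes tested, and the single higher gene makes up 1.32%, beside 16.1% of all genes. Among the channel genes 20 were called in either direction, beside 33.9% of all genes. The median ratio of the channel genes was −0.28, and that of all genes −0.03. On prep 1 alone the channel genes had a median of −0.53, on prep 2 of −0.24 and on prep 3 of −0.16, whereas the medians of all genes lay between −0.03 and −0.01 on every array. Below 0 on all 3 arrays were 43 channel genes (56.6%), beside 33.0% of all genes, and above 0 on all 3 were 2, lgc-12 and lgc-9, beside 29.2%. Without prep 1, whose ratios were spread most widely, 12 channel genes were lower, which is 15.8% of them and the same share as the 15.8% of all genes, and their median was −0.19. Without prep 2 there were 14 (18.4%, beside 13.6% of all genes), and without prep 3 there were 19 (25%, beside 16.3%).

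**Figure D1:**
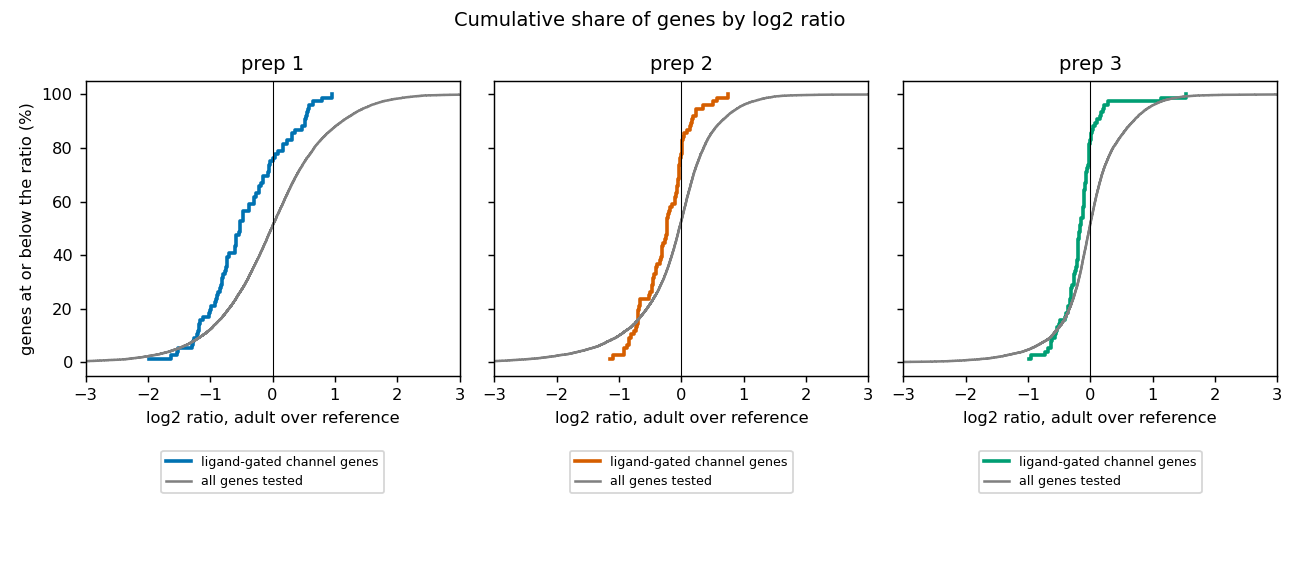
Cumulative share of genes (percent, vertical axis) at or below each log2 ratio of adult over reference (horizontal axis), on each of the 3 arrays, for the 76 ligand-gated channel genes (coloured) and all 15090 genes tested (grey). The channel genes lie to the left of all genes around 0 on each array, with 75%, 77.6% and 82.9% of them below 0 on preps 1, 2 and 3.

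The differences were small. At a ratio of at least 2-fold, 2 channel genes were lower (2.63%, beside 7.68% of all genes) and 0 were higher in limma (beside 5.69%), also at an unadjusted p under 0.05. The means of the 19 lower genes ran from −1.26 to −0.50. The middle part of the distribution, between its quartiles, reached from −0.50 to −0.02 for the channel genes and from −0.36 to 0.30 for all genes. Of the 56 that did not pass, 24 were below 0 on all 3 arrays and 8 had an unadjusted p under 0.05.

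**Figure D2:**
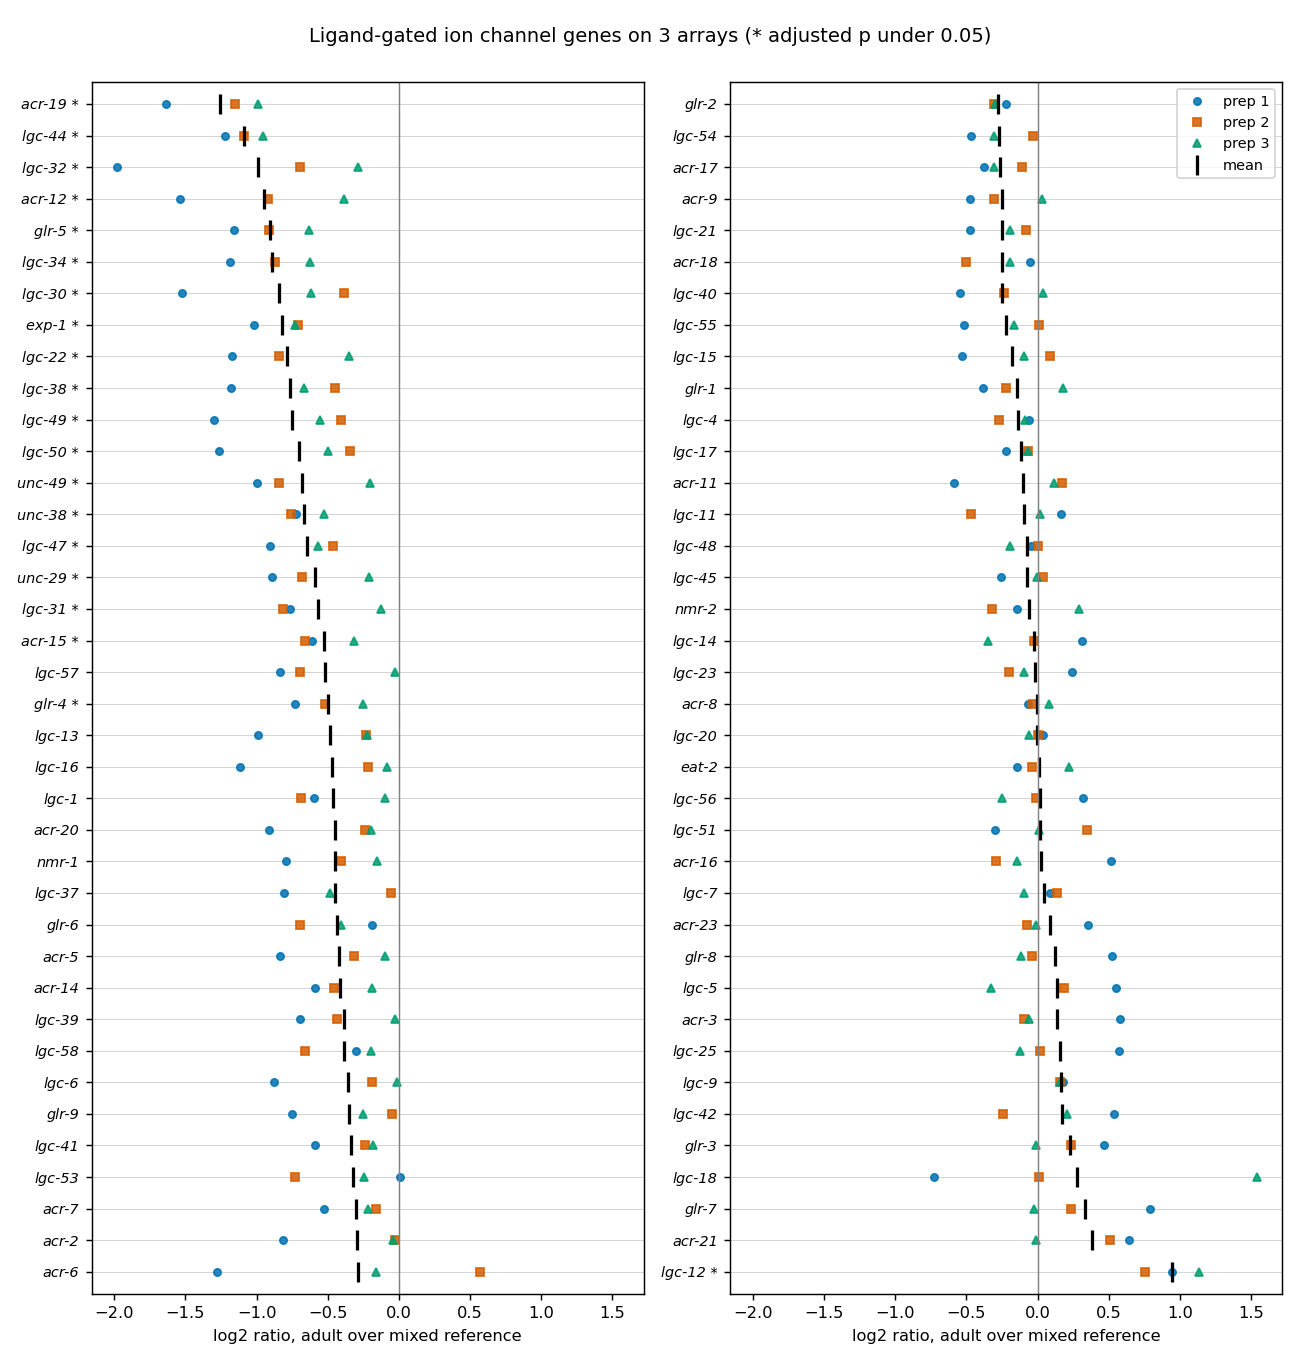
Log2 ratio of adult over reference (horizontal axes) of each of the 76 tested channel genes, ordered by mean from the lowest (top left) to the highest (bottom right), with 1 point for each prep, a bar for the mean and a star where at least 1 probe had an adjusted p under 0.05. All starred genes but lgc-12 stand in the left panel, and prep 1 gives the most extreme value for 55 of the 76 genes.

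Nicotinic-type subunits, a class that includes those of cation channels opened by acetylcholine, are encoded by 21 of the tested genes. Of these 5 were lower and 0 were higher, beside 17.9% and 16.1% of all genes, with a median of −0.29. The counts of each class and list below are to be read beside these same shares. For each channel class below with 0 higher genes, limma also gave 0 at an unadjusted p under 0.05. The lowest mean of the tested channel genes was that of acr-19, a subunit of the ACR-16 group, with −1.63, −1.15 and −0.99 on the 3 preps. It was the lowest of the tested genes on preps 2 and 3, with a mean of −1.26 ± 0.34 and an adjusted p of 0.00059. The subunit gene acr-12, which in the worm contributes to receptors on motor neurons, stood at −1.54, −0.92 and −0.39. It was below 0 on every array but least so on prep 3, and its mean was −0.95 ± 0.57 (adjusted p = 0.0072).

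The levamisole receptor of body wall muscle, named for the anthelmintic that opens it, is built from products of unc-29, unc-38, unc-63, lev-1 and lev-8, of which the last 2 lie outside the symbol rule. The alpha subunit gene unc-38 gave −0.73, −0.76 and −0.53, a close set with a mean of −0.67 ± 0.12 (adjusted p = 0.012). Without prep 2 its mean was −0.63 and it did not pass (0.075). The non-alpha subunit gene unc-29 gave −0.89, −0.68 and −0.21. Its mean of −0.59 ± 0.35 passed the test (adjusted p = 0.034), but without prep 1 (0.102) or prep 2 (0.137) it did not. The third subunit gene with a low ratio was lev-1 (−0.92 ± 0.53, adjusted p = 0.0071), whereas lev-8 at −0.54, 0.05 and 0.06 did not pass (adjusted p = 0.62). Of the 4 measured subunit genes 3 were thus lower, and without prep 2 only lev-1 was.

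A second acetylcholine receptor, on cholinergic motor neurons, contains the products of acr-2, acr-3, acr-12, unc-38 and unc-63. While acr-12 and unc-38 were lower, acr-2 at −0.81, −0.03 and −0.04 did not pass (mean −0.29 ± 0.45), nor did acr-3 at 0.58, −0.10 and −0.06 (mean 0.14 ± 0.38). These 2 genes were near 0 on preps 2 and 3 and had opposite signs on prep 1, although the RefSeq gene table places them side by side. Without prep 2, acr-12 alone of the 4 measured genes was lower.

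Within the ACR-16 group, acr-15 was lower at −0.61, −0.66 and −0.32 (mean −0.53 ± 0.18, adjusted p = 0.039). Leaving out any 1 prep ended the call, with adjusted p-values of 0.062, 0.216 and 0.086 without preps 1, 2 and 3. Without prep 3 its mean was −0.63, while the median standard error over all probes was 0.286, beside 0.182 with all preps. Its neighbour in the gene table, acr-16, encodes the subunit of the nicotine-sensitive receptor of the neuromuscular junction and gave 0.51, −0.29 and −0.14, a mixed set with a mean of 0.03 ± 0.43. The pharyngeal subunit gene eat-2, which sets the rate of pumping, stayed near 0 at −0.15, −0.04 and 0.22. The highest gene of the nicotinic type was acr-21 (0.64, 0.51 and −0.01; mean 0.38 ± 0.35), which did not pass. The other 4 of the group were acr-14 (−0.41 ± 0.21), acr-7 (−0.30 ± 0.20), acr-9 (−0.25 ± 0.26) and acr-11 (−0.10 ± 0.42), and they did not pass either.

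In the DEG-3 group the members acr-20, acr-5, acr-17, acr-18 and acr-23 ranged from −0.45 to 0.09 in their means and did not pass, except for 1 of the 2 probes of acr-5 after quantile normalization and without prep 3. The gene acr-23 encodes a betaine receptor that is the target of the anthelmintic monepantel, and gave 0.36, −0.07 and −0.01. The 2 genes of this group outside the symbol rule, deg-3 (−1.51, −1.42 and −0.69) and des-2 (−1.14, −0.59 and −0.38), which encode the 2 subunits of a single channel, were both lower (adjusted p = 0.0012 and 0.023). The call of des-2 was lost without prep 1 (adjusted p = 0.058). Of the last 2 nicotinic-type members, acr-8 was near 0 on every array (−0.07, −0.03 and 0.08), and acr-6 gave −1.28, 0.57 and −0.16. That set spans both directions, and acr-6 passed as lower only without prep 2 (adjusted p = 0.047).

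Genes for glutamate-gated cation channels comprised 10 glr and 2 nmr genes. Of the 11 tested, 2 were lower, beside 17.9% of all genes. The kainate-type subunit gene glr-5 gave −1.16, −0.92 and −0.63, below 0 on every array, with a mean of −0.90 ± 0.27 and an adjusted p of 0.0032. The gene glr-4 has 2 probes, 1 of which passed at −0.85, −0.75 and −0.33 (adjusted p = 0.019) while the other did not at −0.61, −0.29 and −0.18 (0.159). Both probes were below 0 on every array, and their mean of −0.50 ± 0.24 missed the threshold when the probes were averaged before the fit (adjusted p = 0.053); without prep 2 neither probe passed.

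The AMPA-type subunits glr-1 and glr-2, which carry fast glutamate signals in the command interneurons for locomotion, did not pass. Their values were −0.38, −0.23 and 0.18 for glr-1 and −0.22, −0.30 and −0.30 for glr-2, whose 2 probes both stayed below 0. The NMDA-type subunit genes nmr-1 (−0.79, −0.40 and −0.15; mean −0.45 ± 0.32) and nmr-2 (−0.15, −0.32 and 0.29; mean −0.06 ± 0.315) did not pass either. The gene glr-6 (−0.19, −0.70 and −0.41) had an adjusted p of 0.094, and passed as lower without prep 1 (0.038) and after quantile normalization (0.037).

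Means above 0 were seen for glr-7 (0.33 ± 0.42), glr-3 (0.23 ± 0.24), which encodes a cold-sensing receptor, and glr-8 (0.12 ± 0.35). None of these passed, and each was above 0 on prep 1 and below 0 on prep 3. The gene glr-9 gave −0.75, −0.05 and −0.25. The remaining gene, glr-10, had no value on prep 1 and read 2.66 on prep 2 and −1.11 on prep 3, so it was not tested with the others.

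GABA is the inhibitory transmitter of the worm's motor circuit. Of 5 measured genes of a list of GABA-gated channels and their close relatives 4 were lower, 3 of them among the 4 that follow the symbol rule. The gene exp-1, which encodes an excitatory GABA-gated cation channel that contracts the enteric muscles during defecation, gave −1.02, −0.71 and −0.73. These 3 values lay close together, with a mean of −0.82 ± 0.17 and an adjusted p of 0.0043. The receptor gene unc-49, whose product relaxes body wall muscle, gave −1.0, −0.84 and −0.20, with a mean of −0.68 ± 0.42 (adjusted p = 0.022). It was no longer past the threshold without prep 1 (0.078) or prep 2 (0.099). The subunit gene lgc-38 gave −1.18, −0.45 and −0.67 (mean −0.77 ± 0.38, adjusted p = 0.011), and lgc-37 gave −0.80, −0.06 and −0.49, which did not pass (0.102) except after quantile normalization (0.048). The related gene gab-1, outside the symbol rule, stood at −0.72 ± 0.56 (adjusted p = 0.026, and 0.099 without prep 1). All 5 genes were below 0 on every array, and without prep 1 exp-1 and lgc-38 were the 2 still lower.

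Among channels opened by amines, lgc-50, which encodes a cation channel opened by serotonin, was lower at −1.26, −0.34 and −0.50 (mean −0.70 ± 0.49, adjusted p = 0.024). Without prep 1 its mean was −0.42 and it did not pass (0.086). The genes lgc-53 (−0.32 ± 0.38), for a dopamine-gated channel, lgc-40 (−0.25 ± 0.29) and lgc-55 (−0.23 ± 0.27), for a tyramine-gated chloride channel, did not pass and had mixed signs. The betaine receptor gene lgc-41 gave −0.59, −0.24 and −0.18 and did not pass either.

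In the family of acetylcholine-gated chloride channels, 3 of the 7 measured genes were lower and 0 were higher. The first was lgc-49 at −1.30, −0.41 and −0.55 (mean −0.75 ± 0.48, adjusted p = 0.016), which missed the threshold without prep 1 (0.055; mean −0.48). The second was lgc-47 at −0.91, −0.47 and −0.57 (mean −0.65 ± 0.23, adjusted p = 0.017), which missed it without prep 3 (0.059) at a mean of −0.69. The third was acc-4, outside the symbol rule, at −0.74 ± 0.37 (0.013). The member lgc-48 stayed near 0 (−0.04, 0.01 and −0.19), and acc-1, acc-2 and acc-3 had means of −0.49, −0.29 and −0.38 that did not pass. The list of glutamate-gated chloride channels, the class targeted by the anthelmintic ivermectin, places lgc-34 beside the avr and glc genes. It was lower at −1.19, −0.87 and −0.63, with a mean of −0.89 ± 0.28 (adjusted p = 0.0035).

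**Figure D3:**
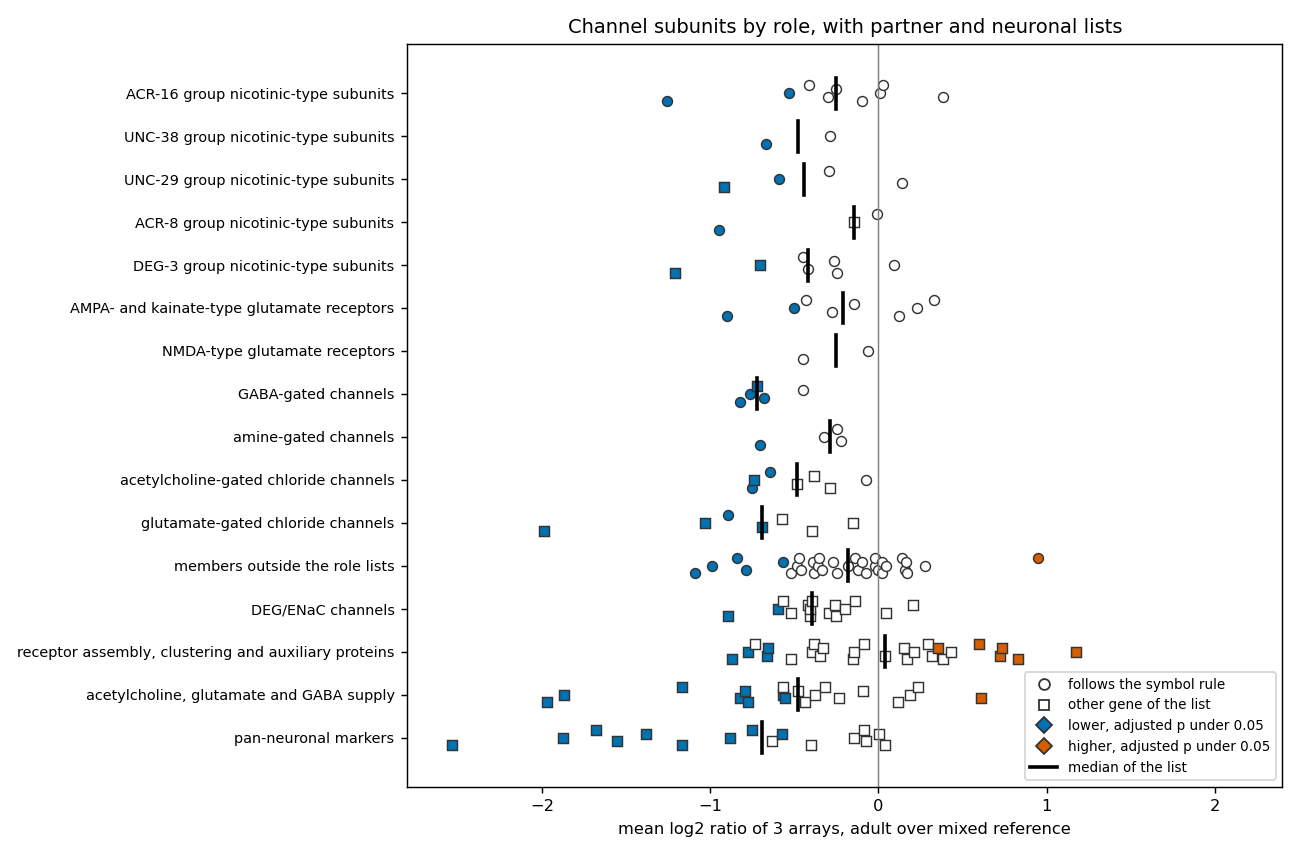
Mean log2 ratio of 3 arrays (horizontal axis) of each gene, grouped by role, with circles for genes that follow the symbol rule and squares for other genes of each list. Blue marks lower and orange higher genes past the threshold, open symbols did not pass, and a black bar gives the median of each list, which was −0.72 for GABA-gated channels and 0.04 for receptor assembly, clustering and auxiliary proteins.

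Outside the lists of role and ligand were 33 of the tested genes, namely 32 lgc genes, lgc-41 among them, and glr-9. Of these 5 were lower and 1 higher, beside 17.9% and 16.1% of all genes, with a median of −0.18. The gene lgc-44 gave −1.22, −1.09 and −0.95, a close set, with a mean of −1.09 ± 0.13 and an adjusted p of 0.00082. The gene lgc-32 gave −1.98, −0.69 and −0.29, so most of its mean of −0.99 ± 0.89 (adjusted p = 0.018) came from prep 1. Without that prep its mean was −0.49 and it did not pass (0.067). The same held for lgc-30 at −1.52, −0.38 and −0.62 (mean −0.84 ± 0.60, adjusted p = 0.015), with a mean of −0.50 without prep 1 (0.051). The other 2 lower genes were lgc-22 (−1.17, −0.84 and −0.35; adjusted p = 0.011) and lgc-31 (−0.76, −0.81 and −0.12; 0.044), and lgc-31 did not pass without prep 1 (0.118) or prep 2 (0.248).

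The single higher gene was lgc-12. It gave 0.95, 0.75 and 1.14 on the 3 preps, the highest of the tested channel genes on preps 1 and 2 and below lgc-18 alone on prep 3, and its mean was 0.95 ± 0.19, a 1.93-fold ratio with an adjusted p of 0.0021. It passed the test under all 9 alternative fits. The next highest means, those of acr-21 (0.38) and glr-7 (0.33), did not pass. The gene lgc-18 had the widest spread, with −0.73, 0.01 and 1.54 and an SD of 1.16. The most even was lgc-9, with 0.18, 0.16 and 0.15, a small ratio that did not pass (adjusted p = 0.52).

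At the low side, acr-5 came closest to the threshold without passing, with an adjusted p of 0.058 for the nearer of its 2 probes (−1.02, −0.59 and −0.07). It was followed by lgc-57 (−0.83, −0.70 and −0.03; mean −0.52 ± 0.43, adjusted p = 0.070), which passed without prep 3 (0.031). The lgc genes outside the role lists that did not pass had means between that of lgc-57 and the 0.28 of lgc-18. Of the runs of neighbouring channel genes in the RefSeq gene table, the longest holds 5 genes, lgc-13 to lgc-17. Their means were −0.48, −0.02, −0.18, −0.47 and −0.12, and none of the 5 passed, except lgc-13 after quantile normalization (adjusted p = 0.041). The neighbours lgc-5 (0.14 ± 0.44) and lgc-6 (−0.36 ± 0.46) had means of opposite sign, and neither passed.

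The preps did not give equal values. Among the 19 lower genes prep 1 was the lowest array for 16 and prep 3 the least low for 13. Across the 76 channel genes (genes on the same arrays, not replicates) Pearson's r was 0.58 for preps 1 and 2, 0.45 for preps 1 and 3, and 0.55 for preps 2 and 3. Over all genes these were 0.79, 0.81 and 0.84, with a wider range of ratios. Above 0 on prep 1 and below 0 on prep 3 were 15 channel genes (19.7%), beside 12.4% of all genes.

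**Figure D4:**
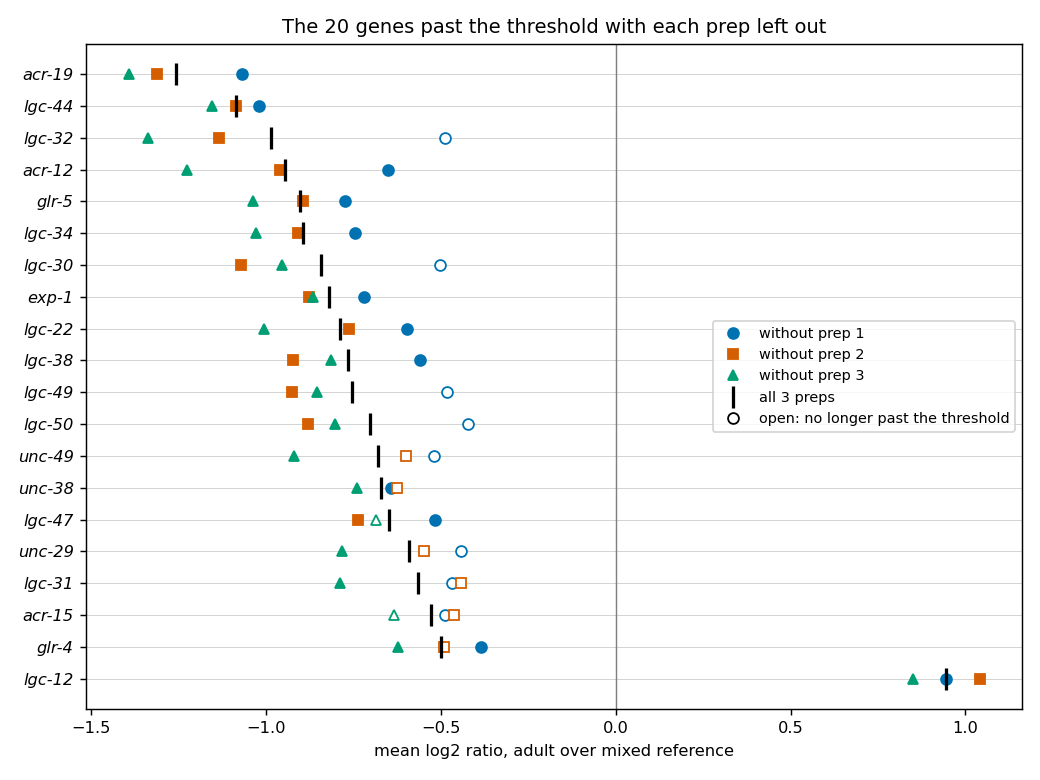
Mean log2 ratio of adult over reference (horizontal axis) of the 20 channel genes past the threshold, with all 3 preps (black bar) and with each prep left out (symbols, open where the gene was no longer past the threshold). No mean crossed 0, and the means of the 19 lower genes lay nearest to 0 without prep 1 for 16 genes and without prep 2 for 3.

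Subunit genes of the same channel classes whose symbols fall outside the rule had low ratios too. Of 16 tested, 8 were lower (50%, beside 17.9% of all genes) and 0 higher, with a median of −0.63, and without prep 1, 2 or 3 there were 6, 9 and 9. The lowest was the glutamate-gated chloride channel gene glc-1, at −2.14, −2.0 and −1.81 (adjusted p = 2.5e-05). Its relative glc-4 was lower too (−1.03 ± 0.35), as was avr-14 (−0.69 ± 0.47, adjusted p = 0.024, and 0.084 without prep 1). Over these and the channel genes of the symbol rule together, 27 of 92 were lower and 1 higher. Of 15 genes of the DEG/ENaC family, cation channels of a different structure that include touch transduction channels, 2 were lower (acd-2 and asic-1) and 0 higher. These counts stand beside 17.9% and 16.1% of all genes, and the median of the list was −0.39. The call of asic-1 was lost without prep 1 (adjusted p = 0.141) and prep 3 (0.084), so that acd-2 alone was lower without prep 1, while asic-2 (0.024) and flr-1 (0.036) passed as lower without prep 3.

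Genes that help receptors to assemble, cluster or traffic had a median of 0.04. Of 27 tested, 4 were lower and 6 higher, beside 17.9% and 16.1% of all genes. The lower ones were molo-1 (−0.87 ± 0.29), an auxiliary protein of the levamisole receptor, ric-3 (−0.78 ± 0.25), a chaperone of nicotinic receptors, the synapse organizer gene madd-4 (−0.66 ± 0.15) and the CaMKII gene unc-43 (−0.66 ± 0.21). The calls of madd-4 and unc-43 were lost without prep 2 (adjusted p = 0.055 and 0.052), and that of madd-4 also without prep 3 (0.126). The highest were the netrin receptor gene unc-40 (1.17 ± 0.22), unc-50 (0.83 ± 0.52), needed for transport of the levamisole receptor, unc-11 (0.74 ± 0.71), an endocytic adaptor, and nra-2 (0.72 ± 0.23), which acts in receptor assembly in the endoplasmic reticulum. The other 2 higher genes were usp-46 (0.60 ± 0.50) and magi-1 (0.36 ± 0.14), which passed at 1 of its 2 probes. The call of unc-11, which was below 0 on prep 3 (−0.07), was lost without prep 1 (adjusted p = 0.206) or prep 2 (0.110) and after scaling of the arrays (0.067). That of usp-46 was lost without prep 1 (0.197), and also (0.055) when probes on 2 arrays were kept in the fit. That of magi-1 was lost without each prep in turn, where neither of its probes passed, and with 1 row per gene (0.145). Calls were also gained: lin-2 passed as lower without prep 2 (0.010) or prep 3 (0.0029), after scaling (0.046) and after quantile normalization (0.021). The gene stg-2 passed as lower without prep 2 (0.031) or prep 3 (0.040), and nra-4 as higher without prep 1 (0.033) and after quantile normalization (0.040). Of 19 genes for the supply and removal of acetylcholine, glutamate and GABA, 8 were lower and 1 higher, beside 17.9% and 16.1% of all genes. Their median was −0.48. The glutamate transporter gene glt-5 (−1.97 ± 0.31) and the glutamate decarboxylase gene unc-25 (−1.87 ± 0.33), which makes GABA, were lowest. The call of cha-1 was lost without prep 1 (adjusted p = 0.147) or prep 2 (0.101), without centring (0.053) and with probes on 2 arrays kept (0.05005). That of glt-6 was lost without prep 2 (0.173) or prep 3 (0.065). In contrast, cho-1, unc-3 and unc-46 passed as lower only in some of the other fits. The acetylcholinesterase gene ace-2 was the higher one (0.61 ± 0.18), though not past the threshold without prep 2 (adjusted p = 0.162) or prep 3 (0.056).

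Markers of the cells that carry these channels were unequal. Of 16 tested genes of a list taken as pan-neuronal 9 were lower and 0 higher, with a median of −0.69. Their means ran from −2.53 for ida-1, followed by −1.88 for snt-1, to 0.04 for snb-1. The gene unc-10 passed at 1 of its 2 probes and lost the call without prep 1 (adjusted p = 0.159). In contrast, ric-19 passed as lower only without prep 3 (0.0028), and unc-18 only after quantile normalization (0.042). Of 10 body wall muscle markers 2 were lower and 0 higher (median −0.01), and of 6 pharyngeal muscle markers 2 were lower (tnc-2 and myo-1, and without prep 1 tnc-2 alone) and 0 higher (median −0.17). Over all genes 17.9% were lower and 16.1% higher. At an unadjusted p under 0.05 limma gave 1 higher gene in each of the 2 muscle lists and 0 among the pan-neuronal genes. The pharyngeal gene tni-4 passed as higher without centring (adjusted p = 0.041), after scaling of the arrays (0.046) and after quantile normalization (0.029). The 2 lower genes of body wall muscle were csq-1 (−1.16 ± 0.26) and unc-98 (−1.01 ± 0.16), while its myosin genes did not pass, with −0.07 ± 0.12 for unc-54 and a mixed set of −0.30, 0.77 and −0.30 for myo-3. The part of these marker levels in the ratios of the channel genes was not tested.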

How the data were processed

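RNA of 3 adult preps was set against a mixed reference on 2-colour arrays. The authors deposited 1 log ratio per probe and array. For their normalization, filtering, direction and genome build the sources used here give nothing. The deposited values were taken as log2, since 100.0% of them give ratios that are multiples of 0.001 within 5e-05 (ratios under 3), beside 10.7% as natural logs. Deposited medians were 0.019, 0.072 and −0.0087 on preps 1, 2 and 3. How the authors centred and scaled them is unknown. Spot intensities were not used, so dim probes could not be removed, and the number of arrays limits the precision.

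Of 20000 probes, 15655 had 1 gene in the platform annotation, 198 several and 4147 none here. A RefSeq table of WBcel235 gave current symbols and changed 0 of the 80 channel gene probes. No coordinates or sequences are given. Neighbours are adjacent protein-coding genes of that table.

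After median centring, an intercept-only model was fitted with limma 3.58.1 (lmFit, eBayes, two-sided, Benjamini-Hochberg over 19710 probes, threshold 0.05) in R 4.3.3. It was also run on simulated data with independent noise for each probe, which does not cover effects shared across an array. The median standard error was 0.182, with 2 residual degrees of freedom and 8.96 from the prior. Without prep 1, 2 or 3 the median standard error was 0.163, 0.266 and 0.286. The prior degrees of freedom were then 7.61, 48.1 and infinite, beside 1 residual. A call lost with a prep left out can therefore go with a larger standard error as well as with a smaller ratio. Where a gene had several probes, their mean and the largest of their adjusted p-values are printed. The channel genes and lists were chosen with earlier results of these data known, so lists are described by counts and medians and not tested. Genes named in full were the 12 largest changes past the threshold, the higher gene, the members of named receptors and the extremes that did not pass, and others were added after their values were seen. Alternatives covered centring, scaling, quantile normalization, probes on at least 2 arrays, 1 row per gene, a robust spread estimate and leaving out each prep.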

Additional observations from a re-analysis of the deposited data

How the results depend on the processing

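The count of lower channel genes was 19, and it was 12 to 19 with a prep left out, 23 after quantile normalization and 18 with 1 row per gene. Restricted to at least 2-fold ratios, the counts were 2 lower and 0 higher. The 9 alternative fits each called lgc-12 as the 1 higher gene. The median of −0.28 moved between −0.36 and −0.19 with a prep left out and was −0.25 without centring. No called gene changed sign under the 9 fits. Past the threshold in all of them were 9 genes, lgc-12 and the lower genes acr-19, lgc-44, acr-12, glr-5, lgc-34, exp-1, lgc-22 and lgc-38. The other 11 lower genes each lost the call in at least 1 fit, and 6 further genes passed in at least 1. These changes came with fewer arrays, quantile normalization or averaged probes, and their cause was not tested further. Symbols updated before the rule gave the same counts. No paired analysis was possible because all arrays form 1 group. Signal over background is unknown here, so a ratio near 0 may also be that of a dim probe.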
